A study of Mus musculus with 9 samples.

Results

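The genes described here are 36 genes of mitosis and the mitotic spindle, chosen by name, and 35 of them are among the 19913 genes tested on the arrays. They fall into 7 groups by role: cyclins with Cdk1 and its phosphatases, mitotic kinases with the chromosomal passenger complex, the spindle checkpoint, the centromere and kinetochore, spindle motors with microtubule binding proteins, anaphase with mitotic exit, and chromosome structure with a proliferation marker. The 36 genes had 53 probes, and testing required signal well above background on each array of 1 or more groups. Each of the 35 was in fact well above background on all 9 arrays. The exception was Aurkb, the kinase of the chromosomal passenger complex, whose probe was above background on 1 of 9 arrays, that of floxed replicate 3.

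All RNA came from mouse embryonic stem cells of a Cre-loxP line made for inducible knockout of Xpc, a DNA damage recognition protein of nucleotide excision repair. The 3 groups, with 3 arrays each, were induced cells (floxed Xpc with Tx, 4 days of deletion), null cells (an Xpc-null subclone with no time given) and floxed cells (the same floxed alleles without Tx, no deletion). The Cre driver and the meaning of Tx are not given in the sources used here, and neither is the number of clones behind the null cells. The sources do not say whether the 3 arrays of a group came from separate cultures. The p-values therefore measure the spread between these arrays, which may be technical.

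Entry into mitosis is driven by Cdk1 bound to cyclin A2 or a B-type cyclin, after Cdc25 phosphatases remove inhibitory phosphates from the kinase. Plk1 and the Aurora kinases then guide spindle assembly, kinetochores attach chromosomes to microtubules, and the spindle checkpoint holds back the anaphase-promoting complex until attachment is complete. Transcripts of many of these genes peak together in G2 and M phase, through promoter elements known as CHR and CCAAT, and embryonic stem cells, which divide fast with a short G1 phase, express them strongly.

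The arrays carried 62976 spots, with 47.4% to 57.9% of spots well above background and none saturated, and the number of arrays limits the precision. Xpc had log2 signals of -1.11, -0.68 and -1.05 on the induced arrays and -0.85, -1.53 and -1.37 on the null arrays, against 0.59, 0.55 and 0.16 on the floxed arrays. It fell by 1.38 in induced and by 1.68 in null cells relative to floxed cells (limma, adjusted p over the 3 comparisons 0.000122 and 5.15e-05). Adjusted over all 19913 genes, as for the other genes here, these limma p-values were 0.224 and 0.00584. By that test Xpc itself was not called in induced cells. Whether its probe lies in the deleted stretch is not given in the sources used here. The stem cell markers Pou5f1, Sox2 and Nanog and 7 further ones were above background on all 9 arrays. The arrays lay on 3 slides: induced 1 to 3 with null 1 and 2 on slide 3, null 3 with floxed 3 on slide 2, and floxed 1 and 2 on slide 1. On the first principal component of all genes, floxed 3 sat at 24.2, nearer to the null arrays (29, 36.2 and 32.2) than to floxed 1 and 2 (-32.6 and -33.9), so the main results that rest on the floxed group are given with and without it. Without floxed 3 the floxed group is slide 1 alone, which held no other group, so slide and group cannot be told apart in those values. The one within-slide value of null against floxed cells is null 3 against floxed 3 on slide 2, 1 array each, which is also what the fit with the slide as a block gives.

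None of the 35 tested mitosis genes passed the test in any of the 3 comparisons. The test was limma's moderated test of 3 group means, with p-values adjusted over the 19913 genes by Benjamini-Hochberg and called under 0.05. Values are log2 of the processed spot signal minus that of the array's 75th percentile, so a difference of 1 is a 2-fold change. In induced against floxed cells 0 of 35 mitosis genes were called, where 0.00502% of all genes were (1 gene). In null against floxed cells it was 0 of 35, where 1.84% of all genes were called (367 genes), and in null against induced cells 0 of 35, where 2.2% were (438 genes). Without floxed 3 the count for null against floxed cells became 9 of 35, where 24.8% of all genes were called, and that for null against induced cells 3 of 35, where 18.1% were. Floxed 3 enters the count for null against induced cells only through the spread that the 3 groups share. With the slide as a block the count was 0 of 35 for null against floxed cells, where 0.251% of all genes were called. A change in the share of dividing cells and a change in RNA per dividing cell cannot be told apart in RNA of whole cultures.

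The 95% intervals describe the brightest probe of each gene and the spread between arrays, without the slides. For all 35 genes the interval of the difference lay within 2-fold in all 3 comparisons, while this held for 92.1%, 87% and 85.9% of all genes in induced against floxed, null against floxed and null against induced cells. Within 1.5-fold lay the intervals of 34, 29 and 31 of the 35, against 69.4%, 57.3% and 56.6% of all genes. The median within-group SD of the 35 genes was 0.12, against 0.177 over all genes tested, which include dimmer ones.

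**Figure D1:**
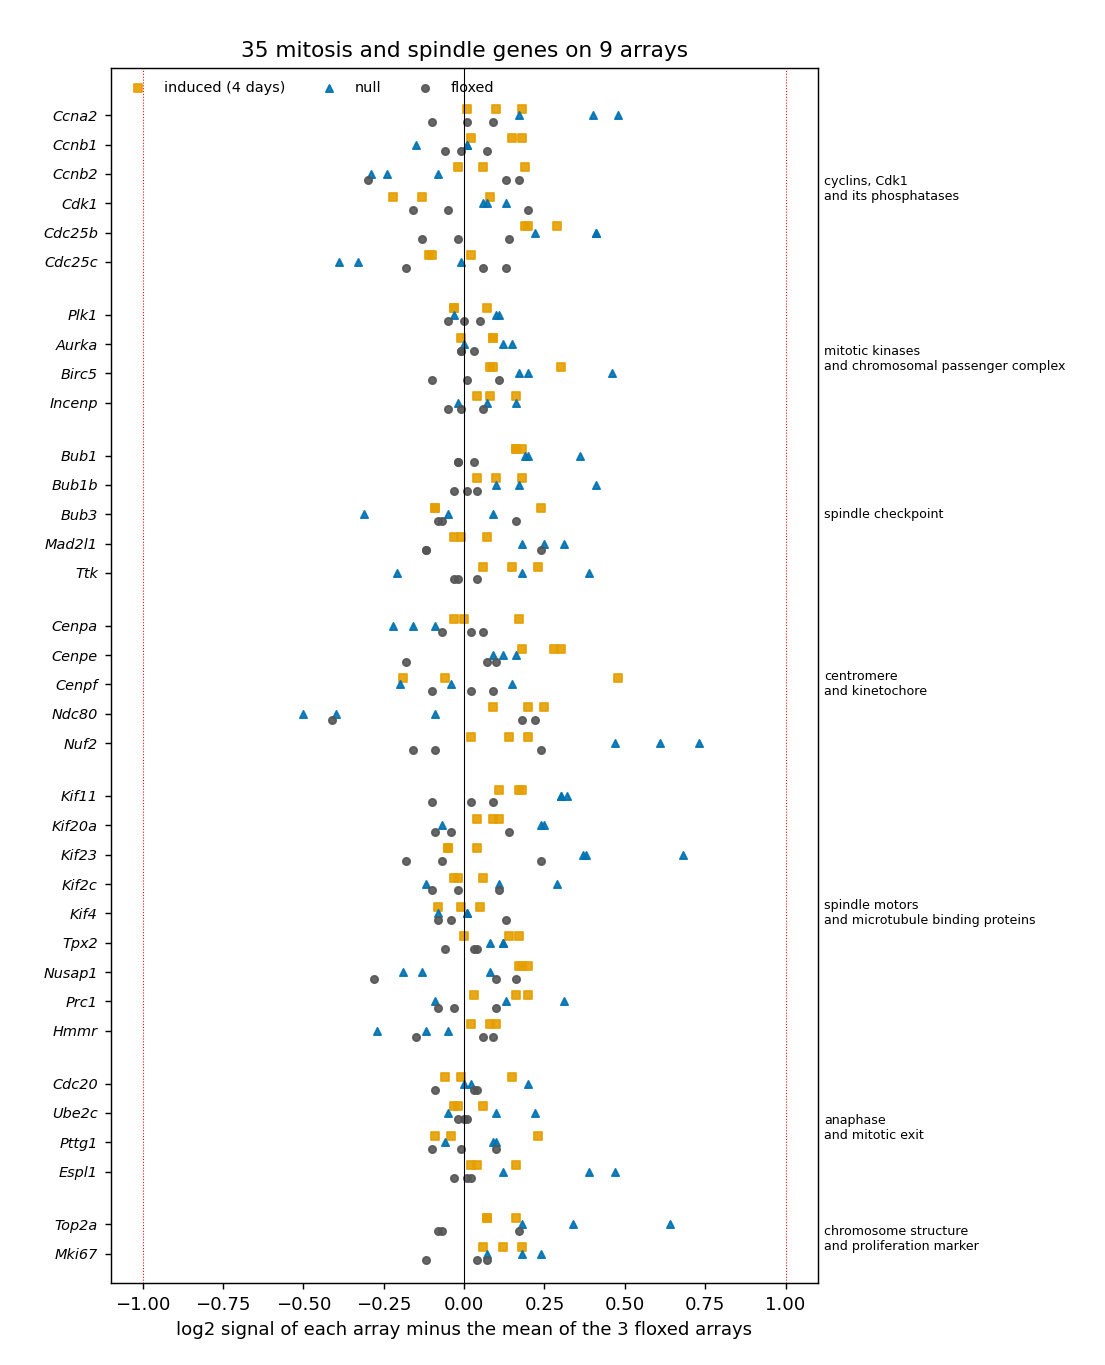
Log2 signal of each array minus the mean of the 3 floxed arrays (x axis) for the 35 mitosis genes (y axis, by role), with squares for induced, triangles for null and circles for floxed arrays. Every point lies within the dotted lines at a 2-fold difference, and the triangles of Nuf2, Kif23 and Top2a reach farthest to the right.

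**Figure D2:**
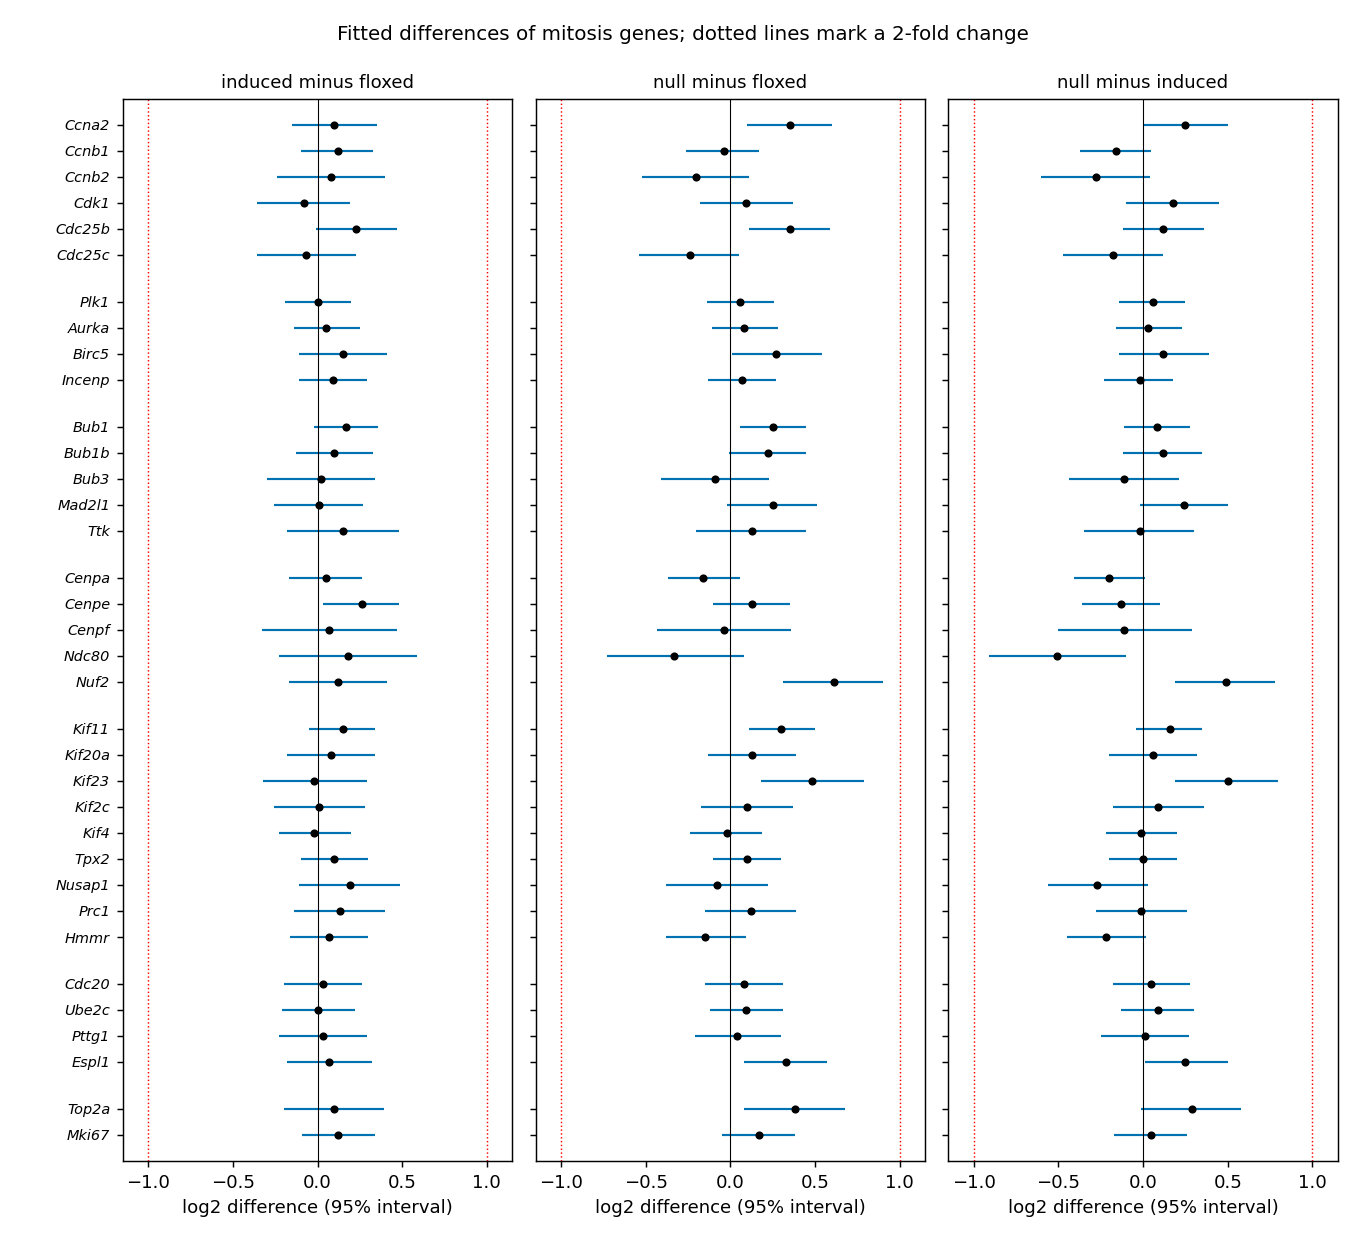
Fitted log2 difference (point) and 95% interval (line) of each of the 35 mitosis genes in the 3 comparisons. All intervals lie inside the dotted lines at 2-fold, and in null minus floxed those of Nuf2 (0.31 to 0.90) and Kif23 (0.18 to 0.79) lie farthest from 0.

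Promoter sequence was searched as well. Genes of this kind are known for CHR and CCAAT elements, so the shares below are not independent of the choice of genes. RefSeq promoter windows of build GRCm38.p6, which run from 250 bases before to 50 after an annotated start site, were found for 30 of the 36 genes. The cell cycle homology element (CHR) was searched as TTTGAA or TTCGAA and the CCAAT box as CCAAT, both on either strand. A CHR was found for 23 of 30 mitosis genes (76.7%), 58.0% of the 88 other mitosis genes with a window, 16.6% of the 10920 tested genes with one, and 21.7% of all 27025 genes with one. CCAAT was found for 23 of 30 (76.7%), and for 62.5%, 43.2% and 41.1% in the same lists. Both were present in 21 of 30 mitosis genes (70%), against 38.6% of the other mitosis genes and 7.06% of tested genes. No CHR match of the mitosis genes overlapped a CCAAT match, and in 21 of the 23 genes the nearest CHR began within 50 bases of the start site. A match of letters is a description and not a binding site.

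The following stretches are of 6 genes described further on that hold a CHR, and show how the 2 motifs are spaced around the start site. CHR and CCAAT letters on either strand are in capitals (ATTGG is CCAAT, and TTCAAA is TTTGAA, read on the opposite strand), and each is written 5′ to 3′ in the direction of the gene.
Kif23 (chr9:61946792-61946909, minus strand): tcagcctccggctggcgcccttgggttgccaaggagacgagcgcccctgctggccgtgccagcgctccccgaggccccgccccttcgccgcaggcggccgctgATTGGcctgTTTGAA
Top2a (chr11:99024190-99024378, minus strand): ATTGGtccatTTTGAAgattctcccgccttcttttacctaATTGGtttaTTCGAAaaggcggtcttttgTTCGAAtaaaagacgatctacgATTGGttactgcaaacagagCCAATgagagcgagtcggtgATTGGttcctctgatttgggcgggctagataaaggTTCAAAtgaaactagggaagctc
Cdc25b (chr2:131186838-131186960, plus strand): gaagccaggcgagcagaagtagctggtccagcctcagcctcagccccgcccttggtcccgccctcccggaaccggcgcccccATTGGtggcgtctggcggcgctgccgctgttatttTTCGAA
Espl1 (chr15:102296183-102296292, plus strand): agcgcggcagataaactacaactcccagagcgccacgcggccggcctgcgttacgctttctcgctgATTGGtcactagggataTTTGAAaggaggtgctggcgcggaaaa
Bub1 (chr2:127831840-127831969, minus strand): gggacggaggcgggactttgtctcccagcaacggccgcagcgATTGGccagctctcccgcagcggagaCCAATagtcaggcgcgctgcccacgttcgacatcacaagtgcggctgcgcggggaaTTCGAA
Mki67 (chr7:135716380-135716505, minus strand): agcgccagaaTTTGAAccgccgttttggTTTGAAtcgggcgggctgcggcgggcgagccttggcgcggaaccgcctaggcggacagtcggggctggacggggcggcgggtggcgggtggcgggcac
In Kif23, Cdc25b and Bub1 the CHR begins at bases 3, 8 and 15 of the transcript. In Espl1 it begins at -27, in Mki67 at -116 and -98, downstream of CCAAT letters that lie outside the stretch shown, and Top2a has 4 matches between -179 and -23. The median null minus floxed difference was 0.09 for the 23 genes with a CHR and 0.13 for the 7 without one (Ccnb1, Birc5, Mad2l1, Cenpe, Nuf2, Nusap1 and Pttg1). The same medians were 0.07 and 0.12 in induced minus floxed and 0.05 and 0.01 in null minus induced, and no test was made between them.

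**Figure D3:**
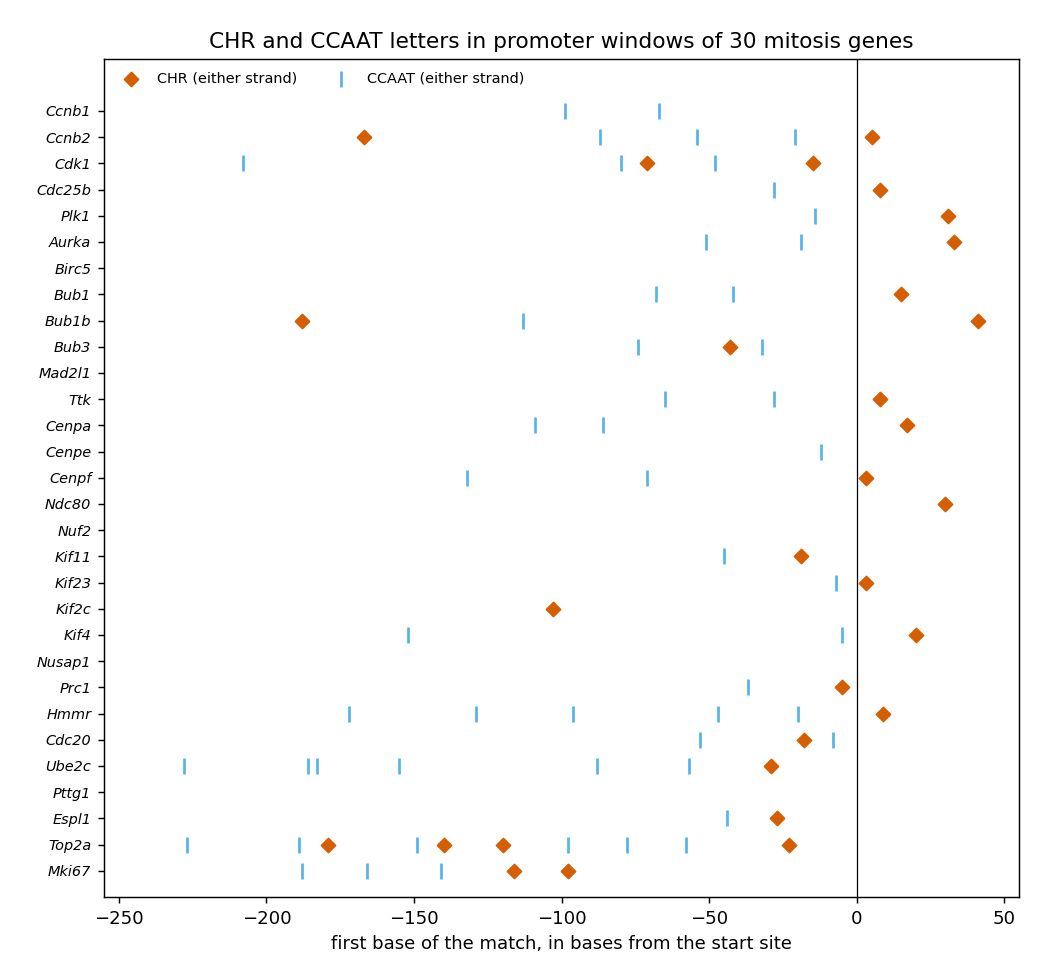
First base of each CHR match (diamonds) and CCAAT match (bars) relative to the annotated start site (0 on the x axis, in bases) for the 30 mitosis genes with a promoter window; of genes with more than 1 window, the first is drawn. For 21 of the 23 genes with a diamond the nearest one lies within 50 bases of the start site.

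Of the cyclins, Cdk1 and its phosphatases, the difference was above 0 for 4 of 6 in induced against floxed cells and for 3 of 6 in null against floxed cells. Cdc25b, a phosphatase that activates Cdk1, differed most. It had log2 signals of 1.29, 1.3 and 1.39 on the induced arrays and 1.51, 1.51 and 1.32 on the null arrays, against 0.97, 1.08 and 1.24 on the floxed arrays. All induced and all null arrays lay above all floxed arrays, while induced and null arrays overlapped. The difference was 0.23 for induced minus floxed (95% interval -0.01 to 0.47, limma adjusted p = 0.865) and 0.35 for null minus floxed (0.11 to 0.59, adjusted p = 0.111). Without floxed 3 these were 0.30 (adjusted p = 0.264) and 0.42 (adjusted p = 0.017), and with the slide as a block -0.11 and 0.07. Ccna2, cyclin A2, also stood at 0.35 in null minus floxed (0.10 to 0.60, adjusted p = 0.123), and at 0.40 without floxed 3 (adjusted p = 0.0413) but 0.08 on slide 2 alone. The 2 B-type cyclins did not share that sign: Ccnb1 was at -0.04 and Ccnb2 at -0.20, both with intervals that included 0, though without floxed 3 Ccnb2 was at -0.35 (adjusted p = 0.0403), and on slide 2 alone at 0.01. Cdk1 itself was at -0.08 in induced and 0.09 in null cells relative to floxed cells, and Cdc25c at -0.07 and -0.24.

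Among the mitotic kinases and passenger proteins, all 4 tested genes had differences at or above 0 against floxed cells, of 0.27 or less. Birc5, survivin of the chromosomal passenger complex, had log2 signals of 6.63, 6.41 and 6.42 on the induced arrays and 6.53, 6.79 and 6.50 on the null arrays, against 6.23, 6.34 and 6.44 on the floxed arrays. The null arrays all lay above the floxed ones and the induced arrays did not. Its null minus floxed difference was 0.27 (0.01 to 0.54, adjusted p = 0.207), 0.32 without floxed 3 (adjusted p = 0.0898) and 0.07 on slide 2. Plk1, Aurka and Incenp, the scaffold of the passenger complex, lay between 0.00 and 0.09 in both comparisons with floxed cells. Aurkb is given by its values alone: -3.29, -3.73 and -3.84 on the induced arrays, -3.55, -3.38 and -3.18 on the null arrays, and -4.97, -4.56 and -3.47 on the floxed arrays, all but the last not well above background.

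Spindle checkpoint genes had the highest median in null against floxed cells of the groups with more than 2 genes, 0.22 over 5 genes, and 0.10 in induced against floxed cells. Bub1, a checkpoint kinase at kinetochores, had log2 signals of 3.02, 3.02 and 3.04 on the induced arrays and 3.22, 3.06 and 3.05 on the null arrays, against 2.84, 2.84 and 2.89 on the floxed arrays. Both sets of Xpc-deleted arrays lay above the floxed arrays without overlap, by 0.17 (-0.02 to 0.36, adjusted p = 0.895) and 0.25 (0.06 to 0.45, adjusted p = 0.137), the second at 0.27 without floxed 3 (adjusted p = 0.0527) and 0.16 on slide 2. Bub1b, a subunit of the mitotic checkpoint complex, was likewise apart, at 0.10 and 0.22. Mad2l1, the Mad2 checkpoint protein, was at 0.01 in induced and 0.25 in null cells, and its null minus floxed difference was 0.37 without floxed 3 (adjusted p = 0.0159) but -0.07 on slide 2 alone. Bub3 was at 0.02 and -0.09, and Ttk, the kinase also called Mps1, at 0.15 and 0.13.

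The centromere and kinetochore genes spread most. Nuf2 and Ndc80, which pair in the NDC80 complex that binds microtubules, stood at opposite ends of the 35 genes in null against floxed cells. Nuf2 had log2 signals of 0.15, -0.03 and 0.09 on the induced arrays and 0.56, 0.68 and 0.42 on the null arrays, against -0.21, -0.14 and 0.19 on the floxed arrays. All 3 null arrays lay above the other 6. The null minus floxed difference was 0.61, or 1.52-fold (0.31 to 0.90, adjusted p = 0.0557), the smallest adjusted p of the 35 genes in that comparison, and the null minus induced difference 0.49 (0.19 to 0.78, adjusted p = 0.0859). Without floxed 3 these were 0.73 (adjusted p = 0.00246) and 0.49 (adjusted p = 0.0115), and on slide 2 null 3 stood above floxed 3 by 0.23.

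The Nuf2 difference was seen at 1 of its 3 probes. The brightest probe, which stood for the gene, lies at chr1:171440451-171440510 (mm9, minus strand). The others, at chr1:171428269-171428328 and chr1:171428989-171429048, had null minus floxed differences of -0.30 and 0.15. Their null minus induced differences were -0.48 and 0.05. The sign of the difference thus depended on the probe, and with the mean over its probes Nuf2 was at 0.15 in null minus floxed.

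Ndc80, picked for its largest negative difference after the values were seen, had log2 signals of 1.97, 1.81 and 1.92 on the induced arrays and 1.63, 1.22 and 1.32 on the null arrays, against 1.94, 1.90 and 1.31 on the floxed arrays. Floxed 3 lay among the null arrays, and floxed 1 and 2 among the induced ones. The null minus floxed difference was -0.33 (-0.73 to 0.08, adjusted p = 0.305), and without floxed 3 it was -0.53 (adjusted p = 0.0217). On slide 2 alone, null 3 and floxed 3 differed by 0.01. Cenpe, a kinesin that moves chromosomes at kinetochores, had the largest difference of the 35 genes in induced against floxed cells. Its log2 signals were 4.99, 4.97 and 4.87 on the induced arrays and 4.78, 4.85 and 4.81 on the null arrays, against 4.79, 4.76 and 4.51 on the floxed arrays. The induced arrays lay above all others, by 0.26 over the floxed mean (0.03 to 0.48, adjusted p = 0.756) and by 0.17 without floxed 3 (adjusted p = 0.458). With the slide as a block the induced minus floxed difference was 0.43. The null minus floxed difference of Cenpe was 0.13, and 0.30 on slide 2. Cenpa, the centromeric histone variant, was at 0.05 and -0.16, and was the one gene of the 35 whose null arrays all lay below the floxed arrays. Cenpf was at 0.07 and -0.04.

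Of the 9 spindle motors and microtubule binding proteins, Kif23, a kinesin of the central spindle needed for cytokinesis, differed most. It had log2 signals of 1.49, 1.58 and 1.49 on the induced arrays and 2.22, 1.92 and 1.91 on the null arrays, against 1.47, 1.36 and 1.78 on the floxed arrays. The null arrays lay above the other 6, and the induced arrays lay within the floxed range. The differences were 0.48 for null minus floxed (0.18 to 0.79, adjusted p = 0.0967) and 0.50 for null minus induced (0.19 to 0.80, adjusted p = 0.0893). Without floxed 3 these 2 values were 0.60 (adjusted p = 0.00834) and 0.50 (adjusted p = 0.0154), and on slide 2 null 3 stood above floxed 3 by 0.13. Its second probe was above background on 3 of 9 arrays and was not fitted.

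Kif11, the kinesin that pushes spindle poles apart, was at 0.15 in induced and 0.30 in null cells relative to floxed cells, with no overlap with the floxed arrays in either (adjusted p = 0.932 and 0.1). Without floxed 3 its null minus floxed difference was 0.25 (adjusted p = 0.0462), and on slide 2 it was 0.40. Nusap1, which bundles spindle microtubules, had log2 signals of 3.41, 3.43 and 3.40 on the induced arrays and 3.31, 3.1 and 3.04 on the null arrays, against 3.33, 3.39 and 2.95 on the floxed arrays. The induced arrays lay just above the floxed ones, by 0.19 (-0.11 to 0.49, adjusted p = 0.958), a mean that rests on floxed 3: without it the difference was 0.05. Tpx2, an activator of Aurora A, Prc1, a cross-linker of the central spindle, and Kif20a were between 0.08 and 0.13 in both comparisons with floxed cells. Kif4 was at -0.02 in both, the microtubule depolymerase Kif2c at 0.01 and 0.10, and the hyaluronan-mediated motility receptor Hmmr at 0.07 and -0.15.

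**Figure D4:**
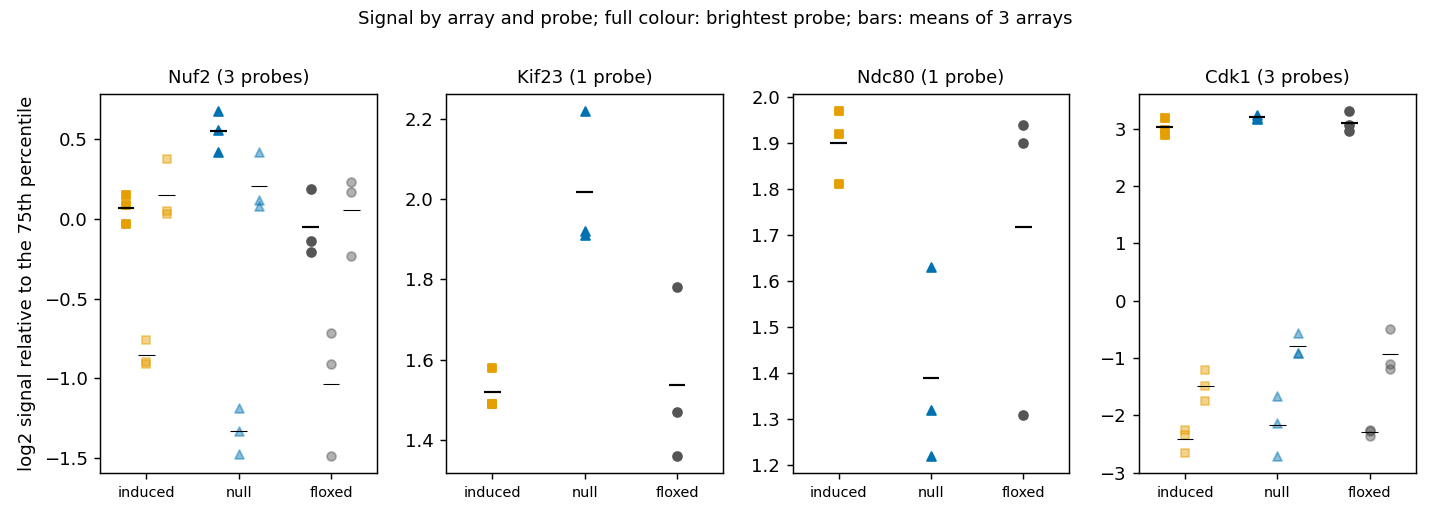
Log2 signal relative to the array's 75th percentile (y axis, not from 0) on the induced, null and floxed arrays for Nuf2, Kif23, Ndc80 and Cdk1; full colour marks the brightest probe, pale colour the gene's other fitted probes, and bars the means of 3 arrays. The null arrays lie above the rest at 1 Nuf2 probe and at the Kif23 probe, and 1 floxed array lies with the null arrays for Ndc80.

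The 4 genes of anaphase and mitotic exit were above 0 in both comparisons with floxed cells, though by 0.07 or less in induced cells. Espl1, separase, which cuts cohesin, had log2 signals of 2.88, 3 and 2.86 on the induced arrays and 3.31, 3.23 and 2.96 on the null arrays, against 2.85, 2.86 and 2.81 on the floxed arrays. The null arrays lay above the floxed arrays, and null 3 lay below the highest induced array. Its differences were 0.07 (-0.18 to 0.32, adjusted p = 0.981) in induced cells and 0.33 (0.08 to 0.57, adjusted p = 0.136) in null cells. The null value was 0.31 without floxed 3 (adjusted p = 0.0931) and 0.15 on slide 2. Its inhibitor securin, Pttg1, was at 0.03 and 0.04, the activator Cdc20 of the anaphase-promoting complex at 0.03 and 0.08, and the ubiquitin-conjugating enzyme Ube2c at 0.00 and 0.09.

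Top2a, the topoisomerase that untangles sister chromatids, had log2 signals of 4.02, 4.11 and 4.02 on the induced arrays and 4.59, 4.29 and 4.13 on the null arrays, against 3.88, 3.87 and 4.12 on the floxed arrays. The null arrays lay above the floxed ones, null 3 only by 0.01 over floxed 3, and the induced arrays lay below the null ones and within the floxed range. The null minus floxed difference was 0.38 (0.08 to 0.68, adjusted p = 0.145), and without floxed 3 it was 0.46 (adjusted p = 0.0386), against 0.01 on slide 2. Mki67, the Ki-67 proliferation marker, had log2 signals of 4.72, 4.84 and 4.78 on the induced arrays and 4.84, 4.90 and 4.73 on the null arrays, against 4.73, 4.70 and 4.54 on the floxed arrays. The null arrays lay at or above the highest floxed array, and the induced arrays overlapped with both. Its differences were 0.12 (-0.09 to 0.34, adjusted p = 0.968) and 0.17 (-0.05 to 0.38, adjusted p = 0.324), and without floxed 3 they were 0.06 and 0.11.

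Over all 35 genes the induced minus floxed differences were small and mostly of 1 sign. They ran from -0.08 to 0.26 with a median of 0.08, against -0.0007 over all genes tested. They were above 0 for 31 of 35 genes, against 49.8% of all genes, and the exceptions were Cdk1, Cdc25c, Kif23 and Kif4. The induced arrays lay above the floxed arrays without overlap for 7 of 35 genes, against 6.63% of all genes, and below them for 0, against 6.26%. At an unadjusted limma p under 0.05 there was 1 of 35 (Cenpe), against 5.91% of all genes. Without floxed 3 the median was 0.063 and 27 of 35 were above 0. With the slide as a block the median was -0.067 and 15 of 35 differences were above 0, so the common sign was lost. In that fit the difference between induced and floxed cells rests on the null arrays that link slides 2 and 3, since no slide held both groups.

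In null against floxed cells the differences ran from -0.33 to 0.61, with a median of 0.098 against 0.012 over all genes, and 25 of 35 were above 0, against 51.8% of all genes. The null arrays lay above the floxed arrays for 12 of 35 genes, against 12% of all genes, and below them for 1 (Cenpa), against 11.4%. The unadjusted p was under 0.05 for 9 of 35 genes, all higher in null cells, against 22.8% of all genes in both directions and 11.7% in the higher one. These were Nuf2, Kif23, Kif11, Cdc25b, Ccna2, Espl1, Bub1, Top2a and Birc5. Without floxed 3 the median was 0.086, and 9 of 35 genes passed, where 24.8% of all genes did. Of these, 7 had higher values in null cells (Nuf2, Kif23, Mad2l1, Cdc25b, Top2a, Ccna2 and Kif11) and 2 had lower values (Ndc80 and Ccnb2). None of them passed with the slide as a block, where 0.251% of all genes were called. That fit compares null with floxed cells through slide 2 alone. On slide 2, with 1 array of each group, the median of the 35 differences was 0.011.

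In null against induced cells 21 of 35 differences were above 0, against 53.4% of all genes, with a median of 0.046 against 0.021. The groups did not overlap for 13 of 35 genes, against 37.2% of all genes. Of these 6 were higher in null cells, against 19% of all genes, and 7 lower, against 18.3%. The unadjusted p was under 0.05 for 4 of 35, Nuf2, Kif23 and Espl1 higher (11.3% of all genes) and Ndc80 lower in null cells (12.6%), against 23.9% of all genes in both directions. Slide 3 held null 1 and 2 beside all 3 induced arrays. Within it Nuf2 and Kif23 were both higher in null cells by 0.55 (adjusted p = 0.0241 and 0.034), where 12.4% of all genes were called. For Nuf2 this is the brightest probe, while over all 9 arrays its other probes were at -0.48 and 0.05. With the slide as a block Ccna2 and Espl1 passed too, where 16.3% were called.

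**Figure D5:**
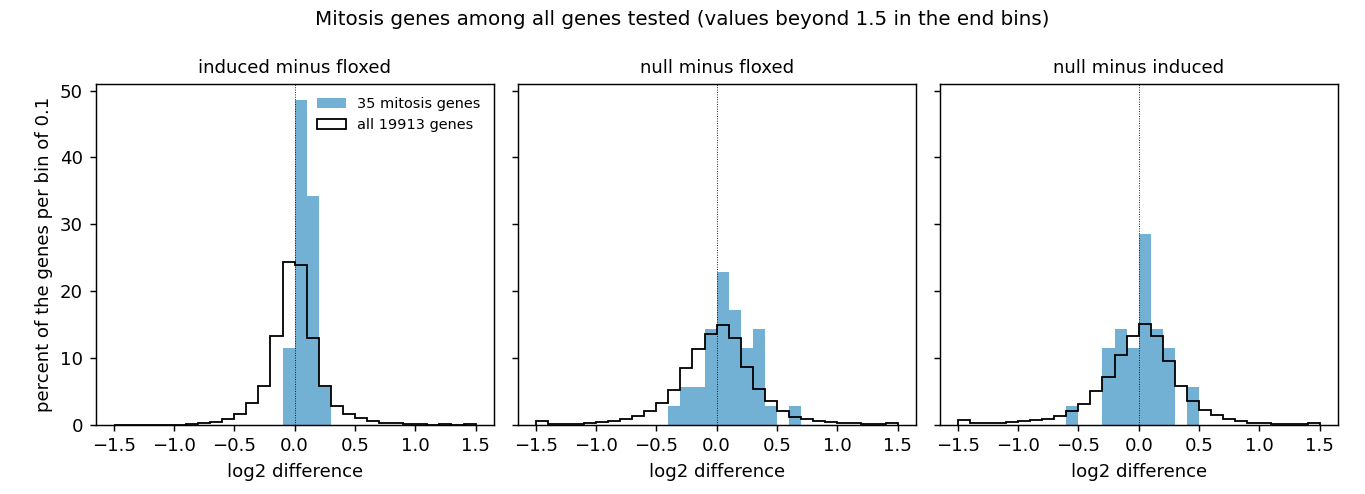
Share of genes (y axis, percent per bin of 0.1) by log2 difference (x axis) in the 3 comparisons, for the 35 mitosis genes (filled) and all 19913 genes tested (outline). In induced minus floxed the filled bars lie between -0.08 and 0.26 and mostly right of 0, and in the other two comparisons they spread on both sides of 0.

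Floxed 3 differed from its own group at these genes. Its offset from the mean of floxed 1 and 2 had an SD of 0.23 over the 35 genes, against 0.08 for the difference between floxed 1 and 2, and over all genes the same SDs were 0.49 and 0.28. The lowest offsets were those of Ndc80 (-0.61), Ccnb2 (-0.45) and Nusap1 (-0.41), and the highest those of Nuf2 (0.37), Kif23 (0.36) and Mad2l1 (0.36). On the first principal component of the 35 genes, with 54.8% of their variance, floxed 3 sat at 0.277, between the induced arrays (-0.36 to -0.35) and the null arrays (0.55 to 0.993), with floxed 1 and 2 at -0.869 and -0.817.

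The probes of 1 gene did not always share a sign. Of the 35 tested genes 11 had more than 1 fitted probe, and in each comparison 7 of the 11 had the same sign at all of them. Just 4 of the 11 (Cdk1, Incenp, Kif2c and Mki67) did so in all 3 comparisons. Cdk1 had 3, with induced minus floxed differences of -0.08 at the brightest, -0.11 and -0.56, the last with an unadjusted p of 0.0298. In null minus induced the same probes were at 0.18, 0.24 and 0.69, the last with an unadjusted limma p of 0.0111. Birc5 had null minus floxed differences of 0.27, 0.22 and 0.07, Pttg1 of 0.04 and 0.39, and Tpx2 of 0.10 and -0.13.

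A wider list of 109 further mitosis genes, of which 108 were measured, was set beside them. No gene of it passed in any comparison (0 of 108 in each). Its unadjusted p was under 0.05 for 1, 17 and 9 of 108 genes in induced against floxed, null against floxed and null against induced cells, against 5.91%, 22.8% and 23.9% of all genes. Its medians were 0.071, 0.041 and -0.031 in the same order, against -0.0007, 0.012 and 0.021 over all genes. Differences above 0 were 87, 60 and 47 of the 108, against 49.8%, 51.8% and 53.4% of all genes.

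Markers of other cell types moved with the null cells. Of 14 listed fibroblast markers 7 were measured, and 5 of them fell in null against floxed cells, while Thy1 and Fbln1 were higher by 1.37 and 0.29 without passing (adjusted p = 0.104 and 0.271). The list had a summed level, relative to the 75th percentile, of 9.89 to 11.6 on null arrays and 28.6 to 31.8 on floxed arrays. Of 10 trophectoderm markers 9 were measured, and 6 fell, Tfap2c, Eomes and Ascl2 not passing at -0.50, 0.45 and 0.24, with sums of 39.9 to 42.8 on null arrays and 82.4 to 119 on floxed arrays. Of the markers that fell, Col3a1, Twist2 and Cdx2 were above background on 0 of 3 null arrays, and Hand1 and Gata3 on 1 of 3. These passed the filter only through the floxed and induced arrays. Their falls in null cells, against either group, thus rest on null signals near background. On induced arrays the fibroblast sums were 18.6 to 25.3 and the trophectoderm sums 71.3 to 97.1, where no marker of either list was called against floxed cells. Such sums weigh bright probes most, those of Tagln and Krt18 above all. The fibroblast markers Pdgfra, Pdgfrb, Dcn, Lum, Postn, Twist1 and Col6a1 and the trophectoderm marker Elf5 were not among the genes tested. The part of these marker changes in the differences of the mitosis genes was not tested. Blood and endothelium markers (7 of 8 measured) and embryonic stem cell markers (10 of 10) had no call against floxed cells. In null against induced cells 5 fibroblast and 4 trophectoderm markers fell, and 1 stem cell marker, Utf1, was higher in null cells by 0.59 (adjusted p = 0.0324).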

How the data were processed

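Total RNA (50 ng) was labelled with Cy3 for Agilent 1-colour arrays, 1 per sample. Per the file headers, Agilent Feature Extraction 10.7.3.1 wrote the deposited linear intensity of each spot: a processed signal after background subtraction, a mean signal, a local background and quality marks. The deposited series matrix holds the mean signal intensity, which matched the scanner's in 100% of values. Other steps of the authors are not given in the sources used here.

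Control and outlier spots were left out, spots of a probe averaged, and log2 of the processed signal taken minus that of the array's 75th percentile. Probes were named through accessions in RefSeq GRCm38.p6 (27235) or kept the file's name (28446), and the files place probes on mm9. Of 27536 probes above background on all 3 arrays of a group, the brightest stood for each of 19913 genes, and 5 probes with only outlier spots on an array were left out. The brightest-probe rule can hide probes that disagree. The 3 comparisons came from 1 fit of group means (limma 3.58.1 in R 4.3.3, two-sided, 6 residual and 2.9 prior degrees of freedom), with intervals of 2.27 standard errors. The mitosis genes, the other lists and the marker lists were chosen with earlier results of these data known.

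Per-array values are given for genes that passed and, in each role group, for the largest difference in null and in induced cells against floxed cells. Ndc80 was added after its values were seen. Promoters were printed for up to 6 of these genes that hold a CHR, and exons of mm9 were not analysed here. The alternatives were other normalizations and backgrounds, filters, the mean over probes, the slide as a block, within slides, a replicate block, a trended robust fit and leaving out each array.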

Additional observations from a re-analysis of the deposited data

How the results depend on the processing

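In induced against floxed cells no mitosis gene was called under any of 20 alternatives. The slide as a block turned the median to -0.067 and called 1 gene of the wider mitosis list, where 0.874% of all genes were called. In null against floxed cells 1 mitosis gene (Nuf2) was called with normexp background, with the series matrix signal and with probes above background on all arrays, where 2.86%, 2.5% and 2.43% of all genes were called, and 2 (Nuf2 and Kif23), with 1 of the wider list, in the trended robust fit, where 4.57% were. Leaving out 1 array gave 0 to 9 mitosis genes and 0 to 16 of the wider list. The highest counts came without floxed 3, where 24.8% of all genes were called. The median was 0.011 both with the slide as a block and within slide 2. In null against induced cells the mitosis genes called were 4 with the slide as a block, 2 with it as a random block, 2 within slide 3 and 1 in the trended robust fit, where 16.3%, 9.1%, 12.4% and 4.36% of all genes were called. The wider list then gave 4, 2, 2 and 1, and 1 each with normexp background and the series matrix signal, where 2.86% and 2.65% of all genes were called. Leaving out 1 array gave 0 to 3 mitosis genes and 0 to 8 of the wider list. Both were again highest without floxed 3, where 18.1% of all genes were called. Quantile normalization turned the median to -0.007. Floxed 3 enters null minus induced only through the spread that the 3 groups share, and without it the median stayed at 0.046. The cause of the other changes was not tested. With a replicate block 0 mitosis genes were called in each comparison, and 1, 166 and 188 of all genes in the order above, against 1, 367 and 438 without it. The correlation of same-numbered arrays' deviations from their group means lay between -0.11 and 0.09. For arrays with different numbers it lay between -0.12 and 0.1. No pairing by number was seen, though deviations from means of 3 arrays cannot exclude one. Under all alternatives the intervals of at least 34 of 35 mitosis genes stayed within 2-fold, a count added after seeing the data. The sign of the difference never turned for 9, 17 and 23 of the 35 genes in the 3 comparisons.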
